A study of Mus musculus with 16 samples.

Results

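Livers of Mettl3 cKO mice were compared between 1 week (W1) and 2 weeks (W2) after birth, with 2 livers at each age. Of the 53379 genes in the expression matrix, 12262 were followed here: autosomal genes at 1 FPKM or more in at least 2 of these 4 livers, without the mitochondrially encoded genes. FPKM is a fragment count scaled by gene length and library depth. The study sequenced 16 livers of C57BL/6J mice, 2 for each of 4 ages (day 1, W1, W2 and W4) and 2 genotypes. In Mettl3 cKO mice (Mettl3-hepatic specific deletion), loxP-flanked Mettl3 alleles were recombined by a Cre transgene driven by the Alb enhancer and promoter, so hepatocytes and their albumin-expressing precursors were targeted while blood, endothelial and stellate cells of the same livers kept the gene. Control livers were WT, and both genotypes were untreated.

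The methyltransferase Mettl3 places m6A (N6-methyladenosine) on mRNA, a mark known to bear on splicing, stability and translation of transcripts. The interval between the first and the second week is a turning point in the mouse liver. Blood formation, which fills the fetal liver, recedes toward the bone marrow and spleen, hepatocytes leave the cell cycle, fetal products such as alpha-fetoprotein are shut off, and the enzymes of nitrogen, drug and bile acid metabolism become arranged along the axis from portal to central vein.

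The deposited table does not check the deletion, since a whole-gene value also holds reads from the exons outside the deleted part and from cells without Cre. Mettl3 stood at 8.86 and 7.24 FPKM in the W1 livers labelled Mettl3 cKO and at 7.21 and 6.72 FPKM at W2, a log2 change of 0.05 (SE 0.14, adjusted p = 0.86). Alb, the major plasma protein gene of hepatocytes, lay between 32208 and 39035 FPKM in the 4 livers, so all were liver by their leading transcript. The estimated depth of these 4 libraries was 13.36 to 15.1 M fragments, and replicate livers correlated at r = 0.976 (W1) and r = 0.971 (W2) across genes. The mitochondrial genome's share of all FPKM was 24.6% and 34.7% at W1, and 25.2% and 43.8% at W2. In Control livers it was 29.4% and 22% at W1 but 58.1% and 59.0% at W2. Its part in the comparisons with Control was not tested.

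Sex changed with age in the cKO livers. Xist, the RNA of the inactive X chromosome, was at 52.9 and 55.1 FPKM in the 2 W1 livers and at 0.0247 and 0.0478 FPKM at W2. The Y-linked gene Eif2s3y was at 0.00 and 0.0229 FPKM at W1 and at 18.9 and 16.9 FPKM at W2. The W1 cKO livers were therefore female and the W2 cKO livers male by these transcripts, while all 4 Control livers of W1 and W2 were male. Age and sex cannot be told apart within the cKO comparison, and the Control change is given beside most gene lists for that reason.

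Between W1 and W2, 740 genes were called higher and 990 lower in cKO livers (limma on log2(FPKM + 1) after rescaling, Benjamini-Hochberg adjusted p under 0.05). These are 6.03% and 8.07% of the genes tested, and they are the background against which the gene lists below are read. The falls were the larger changes. Among the called genes, 471 fell and 236 rose by more than 1 on the log2 scale. The balance depended on how the libraries were scaled. With FPKM as deposited 338 genes were called higher and 1718 lower, and with the total of autosomal genes set equal 319 and 1449, because the median gene then moved by -0.20 and -0.18. All 990 lower calls held under the 3 scales, and so did 291 of the higher calls. Both other scales moved the median gene down, which favours lower calls, so these counts do not rank the falls above the rises.

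Control livers changed at more genes over the same week, with 1403 called higher (11.4%) and 1588 lower (13%). Of the genes lower in cKO livers, 556 were also lower in Control and 1 was higher there. Of those higher in cKO livers, 306 were also higher in Control and 6 were lower. Across the 12262 genes the 2 changes correlated at r = 0.606, a description over genes, which are not independent replicates. A test of the difference between the 2 changes called 8 genes with a higher change in cKO (0.0652%) and 3 with a lower one (0.0245%). In the same limma test 2225 genes were at an unadjusted p under 0.05. The comparison with Control depended on the scale too. Over all genes the median difference between the 2 changes was -0.01 as rescaled here. It was 0.19 with FPKM as deposited and -0.26 with totals set equal. Control counts and median changes are given only as rescaled here.

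**Figure D1:**
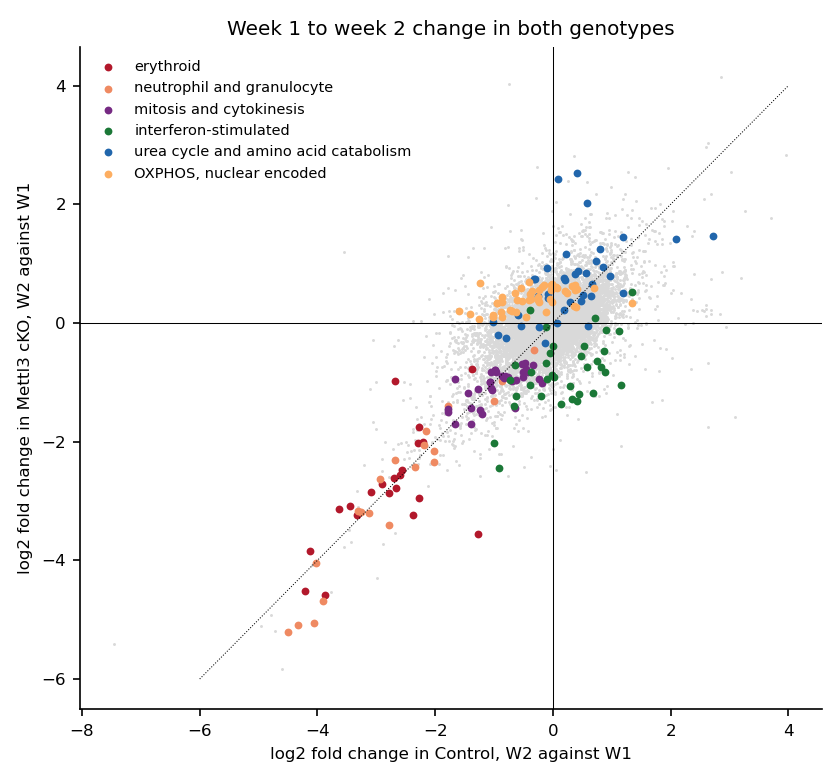
Each point is 1 of the 12262 genes, with its log2 fold change from W1 to W2 in Control livers on the x axis and in Mettl3 cKO livers on the y axis, both after rescaling; the dotted line marks equal change. Erythroid and neutrophil genes lie far down near that line, and OXPHOS genes lie above 0 in cKO and mostly below 0 in Control. Interferon-stimulated genes lie mostly below 0 in cKO (3 of 35 above) and on both sides of 0 in Control (19 of 35 above).

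Of all the gene lists, the 2 of red cells and granulocytes had the lowest medians. All 21 erythroid genes tested were lower at W2, with a median log2 change of -2.85, and 20 of them were lower in Control, where the median was -2.68. Slc4a1, the band 3 anion exchanger of the red cell membrane, went from 53.2 and 42.9 FPKM at W1 to 0.981 and 0.778 FPKM at W2. The 2 ages lay far apart, and the change was -4.52 (SE 0.17, adjusted p = 2.9e-08). Kel, the Kell blood group protease, fell from 21.3 and 17.9 FPKM to 0.347 and 0.252 FPKM. The alpha-globin gene Hba-a1 was still at 214 and 337 FPKM at W2, down from 2195 and 1766 FPKM. Its near-identical copy Hba-a2 can share reads with it, so the split between the 2 is uncertain. Summed over the list, erythroid transcripts went from 5732 and 4759 FPKM at W1 to 488 and 721 FPKM at W2. In bulk tissue, fewer cells of a type and less RNA per cell cannot be told apart.

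Granulocyte genes fell as well. Of 20 neutrophil and granulocyte genes, 19 were lower, with a median change of -2.53 (Control: 19 lower, median -2.73). The calprotectin subunit gene S100a9 was at 552 and 321 FPKM at W1 and at 22.7 and 3.95 FPKM at W2, a change of -5.05 (SE 0.54, adjusted p = 8.5e-05). The other subunit, S100a8, moved from 372 and 230 FPKM to 15.0 and 4.83 FPKM. Camp, the cathelicidin antimicrobial peptide, had 146 and 91.4 FPKM at W1 and 4.34 and 0.467 FPKM at W2. In each of these genes replicate 2 of W2 was the lowest of the 4 livers. The largest fall of all named genes was that of Stfa1 (-5.83, SE 0.52), a stefin A protease inhibitor of myeloid cells. Stfa2, Stfa2l1 and Stfa3 on the same chromosome, 16, fell by 4.53, 5.11 and 4.92 on the log2 scale, but the stefin genes are close copies and their separate values are uncertain. Ltf (lactoferrin) and Elane (neutrophil elastase), made at different stages of granulocyte development, changed by -4.05 and -3.40.

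A pair of genes made in platelets and their precursors was also lower. Pf4, platelet factor 4, went from 91.8 and 64.9 FPKM to 4.60 and 3.61 FPKM, and Ppbp, pro-platelet basic protein, from 63.4 and 40.4 FPKM to 2.63 and 1.96 FPKM. Their changes were -3.72 (SE 0.26) and -3.77 (SE 0.35), against Control values of -2.89 and -3.55.

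**Figure D2:**
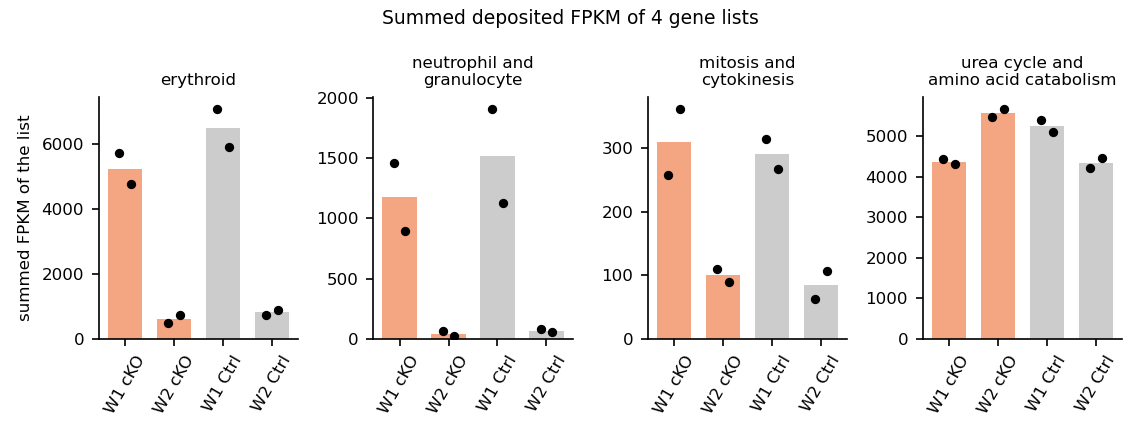
Bars give the mean of 2 libraries, and points the single libraries, of the deposited FPKM summed over 4 gene lists, at W1 and W2 in Mettl3 cKO and Control (Ctrl) livers. In cKO livers the erythroid sum went from 5732 and 4759 to 488 and 721, while the sum of the urea cycle and amino acid genes went from 4435 and 4312 to 5469 and 5678.

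Lymphocyte genes were lower at W2 too. Of 13 B lymphocyte genes, 8 fell in cKO livers (median -1.19) and 6 in Control (median -0.59). The limma test of the difference between the 2 changes passed 0 of the 13, with 6 at an unadjusted p under 0.05. Igll1 and Vpreb1, the surrogate light chain of B cell precursors, went from 7.24 and 5.19 FPKM to 0.270 and 0.229 FPKM and from 4.83 and 4.02 FPKM to 0.712 and 0.0766 FPKM. Both passed the expression filter through the W1 cKO livers alone, and 3 of the 16 listed genes were below it. The filter used no Control liver, so the B lymphocyte counts of cKO and Control are not on equal terms. The B cell receptor component Cd79a changed by -1.57 (SE 0.20) and the heavy chain Ighm by -1.77 (SE 0.22). Of 10 T and NK lymphocyte genes, 8 were lower in cKO livers (median -0.97), against 1 in Control (median -0.01). Another 8 of the 18 listed were below the expression filter, which used the cKO livers only. A gene could pass it through the W1 cKO livers alone, as Il7r did, so the 2 counts are not on equal terms. Summed over all 18, FPKM went from 46.9 and 29.7 to 12.1 and 9.25 in cKO livers. In Control the sum went from 34.4 and 31.4 to 25.5 and 17.6 FPKM. In the limma test of the difference between the 2 changes 0 of the 10 passed, and 7 were at an unadjusted p under 0.05. Il7r, the interleukin 7 receptor, went from 1.497 and 1.71 FPKM to 0.227 and 0.340 FPKM (-0.92, SE 0.17). These genes are low throughout, and the count of calls was 4 without replicate 1 of W2 and 1 without replicate 1 of W1 or replicate 2 of W2.

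Macrophage genes had medians below 0. Of 16 genes of Kupffer cells and resident macrophages, 4 were lower and none higher (median -0.64; Control 4 lower, median -0.34), among them the scavenger receptor Marco (67.8 and 49.4 FPKM at W1, 15.5 and 19.3 FPKM at W2, change -1.44) and lysozyme Lyz2 (67.9 and 55.4 FPKM to 15.7 and 8.87 FPKM, change -2.04). Clec4f, a lectin made by Kupffer cells, was at 64.3 and 66.2 FPKM at W1 and 37.2 and 52.5 FPKM at W2 and did not pass the test (-0.30, SE 0.26, adjusted p = 0.49). Of 13 genes of recruited macrophages, 5 fell (median -0.67; Control 8 lower, median -0.84), including Fabp5, a fatty acid binding protein also made outside macrophages (297 and 250 FPKM to 63.3 and 49.4 FPKM). Without replicate 1 or 2 of W1 or replicate 1 of W2, 2 Kupffer cell genes were called, and with FPKM as deposited 9. In the sinusoidal and vascular endothelial list 0 of 20 genes were called by limma and 5 were at an unadjusted p under 0.05, with a median of 0.01 that was -0.20 with FPKM as deposited. Of 26 stellate and myofibroblast genes, 2 were higher and 1 lower (median 0.03; Control 4 higher, 3 lower), and with FPKM as deposited or totals set equal 0 higher and 2 lower (medians -0.18 and -0.16).

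Cell cycle genes went down together. Of 34 genes of mitosis and cytokinesis, 29 were called lower and none higher, and the log2 changes of all 34 lay between -1.70 and -0.67. The median was -0.96 in cKO livers and -0.97 in Control, where 23 were lower. Mki67, the proliferation antigen Ki-67, was at 31.4 and 43.4 FPKM at W1 and at 8.15 and 9.74 FPKM at W2 (-1.69, SE 0.36, adjusted p = 0.0087). Nusap1, a spindle microtubule protein, moved from 6.25 and 7.98 FPKM to 1.78 and 0.762 FPKM, and the spindle motor Kif11 from 4.92 and 7.29 FPKM to 1.43 and 0.896 FPKM. Ube2c, the ubiquitin-conjugating enzyme of the anaphase-promoting complex, moved from 26.8 and 36.3 FPKM to 9.54 and 7.85 FPKM. No value overlapped between the ages in these 4 genes, as was so for 6992 of the 12262 genes tested. The cyclin Ccnb1 and the topoisomerase Top2a changed by -1.45 (SE 0.24) and -1.46 (SE 0.27). Foxm1, a transcription factor of this programme, was at 4.57 and 7.27 FPKM and then at 2.64 and 2.62 FPKM, and did not pass the test (-0.70, SE 0.28, adjusted p = 0.11). The count of mitosis calls was 8 without replicate 2 of W1, 11 without replicate 2 of W2 and 15 without replicate 1 of W2. Mki67 itself lost its call without replicate 2 of W1 (-1.43, adjusted p = 0.075) and without replicate 1 of W2 (-1.46, adjusted p = 0.0581).

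Many promoters of these genes, which were listed by their function in mitosis, hold short sequences in common. The 4 mitosis genes with the largest falls are shown, each from 250 bases before to 50 bases after the outermost transcription start in RefSeq on GRCm38.p6, read 5′ to 3′ on the gene's strand. Capitals mark TTTGAA, the cell cycle genes homology region (CHR), and CCAAT, the CCAAT box, on either strand (TTCAAA and ATTGG are the reverse complements, and neighbouring or overlapping matches run together). The windows are chr2:119618048-119618347 (+) for Nusap1, chr7:135716330-135716629 (-) for Mki67, chr19:37376132-37376431 (+) for Kif11 and chr2:164769679-164769978 (+) for Ube2c.
Nusap1: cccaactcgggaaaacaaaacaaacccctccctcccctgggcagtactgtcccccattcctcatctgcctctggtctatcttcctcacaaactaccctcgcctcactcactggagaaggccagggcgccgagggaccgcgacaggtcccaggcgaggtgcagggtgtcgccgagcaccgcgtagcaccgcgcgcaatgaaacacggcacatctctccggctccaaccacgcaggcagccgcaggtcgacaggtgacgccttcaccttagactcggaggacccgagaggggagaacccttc
Mki67: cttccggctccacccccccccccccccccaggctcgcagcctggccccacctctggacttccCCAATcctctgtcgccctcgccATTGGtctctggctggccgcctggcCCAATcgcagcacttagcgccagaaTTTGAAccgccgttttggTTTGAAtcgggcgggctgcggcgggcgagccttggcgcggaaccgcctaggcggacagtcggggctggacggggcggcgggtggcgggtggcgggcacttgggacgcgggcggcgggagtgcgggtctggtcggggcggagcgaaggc
Kif11: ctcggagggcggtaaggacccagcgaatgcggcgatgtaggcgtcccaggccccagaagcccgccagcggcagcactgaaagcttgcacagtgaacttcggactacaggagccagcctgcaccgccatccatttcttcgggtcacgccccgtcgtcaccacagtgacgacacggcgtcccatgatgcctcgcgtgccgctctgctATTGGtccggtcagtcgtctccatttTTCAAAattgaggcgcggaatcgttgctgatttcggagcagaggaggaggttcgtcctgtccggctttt
Ube2c: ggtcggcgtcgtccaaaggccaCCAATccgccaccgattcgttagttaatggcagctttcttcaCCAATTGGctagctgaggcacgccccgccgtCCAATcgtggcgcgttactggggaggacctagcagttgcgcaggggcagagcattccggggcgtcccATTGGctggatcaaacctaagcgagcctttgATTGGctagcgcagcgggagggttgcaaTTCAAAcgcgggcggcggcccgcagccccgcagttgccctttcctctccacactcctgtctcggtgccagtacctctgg

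Of the 34 mitosis genes, 28 had a promoter in the table, and 21 of these (75.0%) held a CHR match, 21 (75.0%) a CCAAT match and 18 (64.3%) both. Among the 27025 promoters of the table outside chromosome 18, 18.1% held a CHR match, 37.9% a CCAAT match and 7.12% both. For the 8944 genes tested that had a sequence, the shares were 11.9%, 38.6% and 4.85%. The Nusap1 window held neither, the Mki67 window 2 CHR and 3 CCAAT matches, the Kif11 window 1 of each, and the Ube2c window 1 CHR and 6 CCAAT matches. Among the 25 members called lower that had a promoter, 72.0% held a CHR match, 76.0% a CCAAT match and 64.0% both, close to the whole list. The shares thus describe the list and not the change from W1 to W2. A match describes the letters only. Genes of DNA replication, which fell over the same week, did not show this CHR share: 4 of 26 promoters (15.4%) held a match.

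In the replication list 21 of 32 genes were lower and none higher (median -0.75; Control 21 lower, median -0.86). Rrm2, the small subunit of ribonucleotide reductase, was at 16.4 and 23.8 FPKM at W1 and at 4.76 and 2.42 FPKM at W2 (-2.01, SE 0.36). E2f2, a transcription factor of S phase entry that erythroid precursors also express, went from 8.82 and 8.01 FPKM to 0.678 and 0.672 FPKM (-2.33, SE 0.18). Uhrf1, which guides maintenance DNA methylation, and Mcm5, a subunit of the replicative helicase, changed by -1.57 (SE 0.22) and -1.22 (SE 0.19). Erythroid and cell cycle transcripts moved down in the same livers, and the part of blood precursors in the cell cycle change was not tested. The replication calls numbered 6 without replicate 2 of W1, 8 without replicate 2 of W2 and 13 without replicate 1 of W2.

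Fetal liver transcripts were switched down but not off. Afp, alpha-fetoprotein, was at 5800 and 6091 FPKM in the W1 cKO livers and at 239 and 55.8 FPKM at W2, a change of -5.41 (SE 0.60, adjusted p = 0.00011). Control livers went from 3735 and 2262 FPKM to 12 and 9.63 FPKM, a change of -7.45 (SE 0.60). Every W2 cKO liver thus held more Afp transcript than either W2 Control liver, although the difference between the 2 changes, 2.04, did not pass its test (adjusted p = 0.23). The H19 RNA, made from the maternal allele next to Igf2, went from 4128 and 3975 FPKM to 903 and 419 FPKM (-2.46, SE 0.39). Igf2 itself had low deposited values, at 1.71 and 2.30 FPKM and then 0.155 and 0.120 FPKM. How reads were counted at this locus is not known, so its level is uncertain. Cd24a, a surface protein of immature cells in the liver and blood, fell from 59.7 and 60.3 FPKM to 4.79 and 1.91 FPKM (-3.68, SE 0.34). In all, 14 of 18 genes of the fetal and imprinted list were lower (Control 16), and 9 without replicate 1 of W1.

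Part of that list sits in one imprinted domain on chromosome 12. Meg3 (chr12:109541001-109571726), Rian (chr12:109603940-109661716) and Mirg (chr12:109729764-109749460) are non-coding RNAs read from the maternal allele in the same direction, and Dlk1 (chr12:109452823-109463336) is the paternally expressed gene of the domain. Rian went from 13.6 and 13.4 FPKM to 1.45 and 2.29 FPKM (-2.15, SE 0.26) and Mirg from 4.75 and 4.48 FPKM to 0.382 and 0.537 FPKM (-1.80, SE 0.23). Meg3 and Dlk1, chosen for this paragraph after their values were seen, changed by -1.70 (SE 0.35) and -0.97 (SE 0.23). All 4 RNAs thus moved in the same direction whichever parental allele they come from, and all 4 were also lower at W2 in Control. The Meg3 call was lost without replicate 1 of W1 (adjusted p = 0.0645) or of W2 (adjusted p = 0.0559), and the Dlk1 call without replicate 1 of W1 (adjusted p = 0.149), replicate 1 of W2 (adjusted p = 0.0599) or replicate 2 of W2 (adjusted p = 0.0774).

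**Figure D3:**
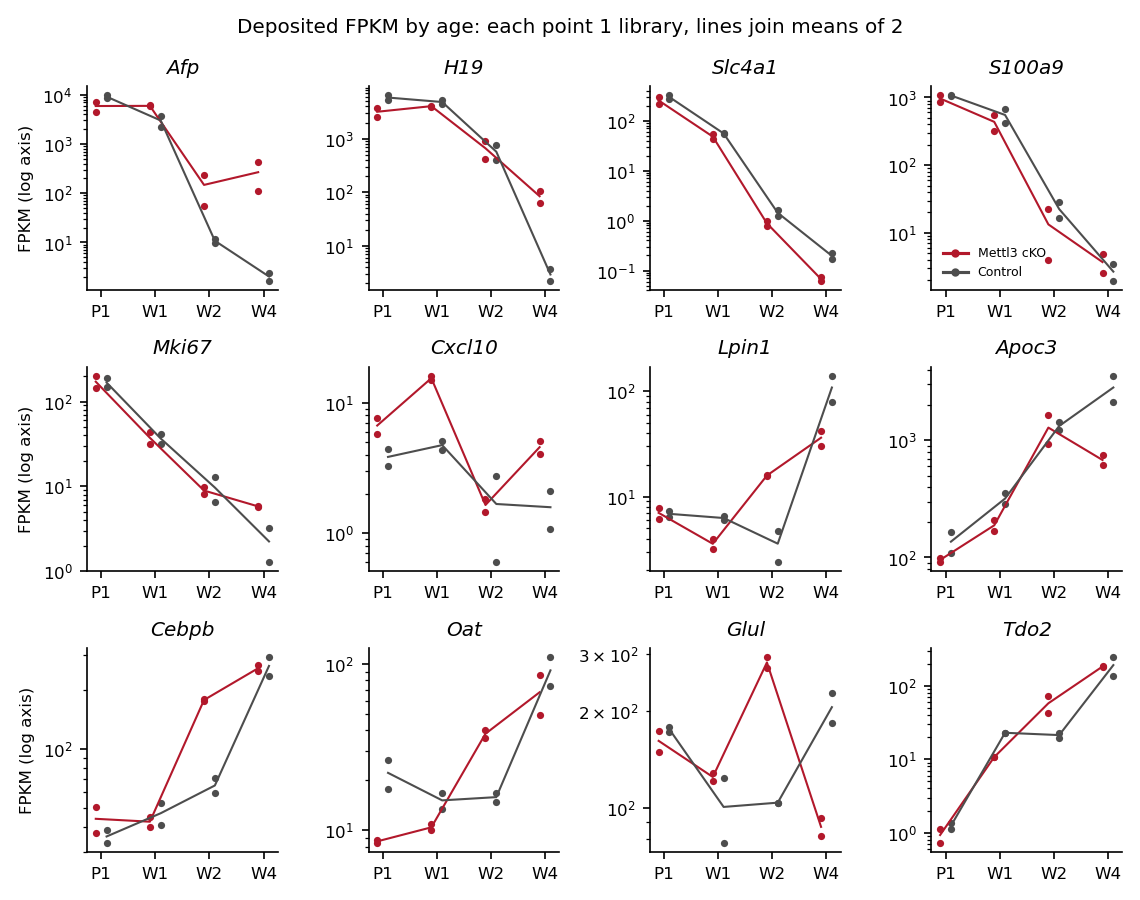
Deposited FPKM of 12 genes on log axes at day 1 (P1), W1, W2 and W4; each point is 1 library, red for Mettl3 cKO and grey for Control, and lines join the means of 2 libraries. Between W1 and W2, Afp in cKO livers falls to 239 and 55.8 FPKM while Control falls to 12 and 9.63 FPKM, and Tdo2 climbs to 73.1 and 42.6 FPKM in cKO while Control stays at 19.8 and 22.9 FPKM.

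Interferon-stimulated genes had a lower median at W2 in cKO livers and not in Control. Of 35 genes, 9 were lower (25.7% of the list against 8.07% of all genes), with a median of -0.83. In Control the median was 0.14, with 4 higher and 1 lower. Cxcl10, a chemokine induced by interferon gamma, was at 15.9 and 14.9 FPKM in the W1 cKO livers and at 1.44 and 1.84 FPKM at W2 (-2.44, SE 0.36, adjusted p = 0.00092). The W1 cKO values lay above the W1 Control values of 5.13 and 4.32 FPKM, and the W2 values between the W2 Control values of 0.598 and 2.74 FPKM. Rsad2 (viperin, an antiviral enzyme) moved from 6.79 and 5.27 FPKM to 0.558 and 0.540 FPKM, with W1 Control at 2.21 and 2.30 FPKM. Oasl1, a regulator of the antiviral response, had 9.54 and 7.004 FPKM and then 2.28 and 1.95 FPKM (-1.36, SE 0.32), against 1.41 and 1.27 FPKM in W1 Control. The ubiquitin-like Isg15 stood at 44.5 and 49.1 FPKM at W1 and 12.7 and 20.6 FPKM at W2 without passing the test (-1.23, SE 0.46, adjusted p = 0.10), and so did Ifit1 (5.06 and 8.14 FPKM, then 2.01 and 2.24 FPKM, adjusted p = 0.096). In the limma test of the difference between cKO and Control changes 0 of the 35 passed, and 20 were at an unadjusted p under 0.05, all of them with the lower change in cKO. With a term for sex the cKO median was -0.006, 0 of the 35 were called, and 1 gene was at an unadjusted p under 0.05 in the test of the difference, with the higher change in cKO. There were 19 calls with FPKM as deposited, 15 with totals set equal, 3 without replicate 1 of W1 and 5 without either W2 replicate. The Oasl1 call was lost without replicate 1 of W1 (adjusted p = 0.101), replicate 1 of W2 (adjusted p = 0.0566) or replicate 2 of W2 (adjusted p = 0.0702).

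Cholesterol synthesis and uptake genes leaned down as well. All 22 had a log2 change below 0, and 7 were called lower (median -0.60; Control 3 lower, median -0.48). Insig1, the sterol sensor that holds back SREBP processing and is itself an SREBP target, went from 21.6 and 16.7 FPKM to 5.36 and 5.61 FPKM (-1.39, SE 0.23). Sqle, squalene epoxidase, went from 6.70 and 9.06 FPKM to 2.27 and 1.79 FPKM (-1.35, SE 0.29). The count was 15 with FPKM as deposited and 13 with totals set equal, 1 without replicate 2 of W1 or replicate 2 of W2 and 4 without replicate 1 of W1, and the Sqle call was lost without replicate 2 of either age (adjusted p = 0.0783 and 0.0571). Of 31 genes of the integrated stress and unfolded protein responses, 5 were lower and 1 higher (Control 4 lower, 3 higher). Among the lower ones were Psat1, a serine synthesis enzyme (9.06 and 9.55 FPKM to 2.07 and 2.27 FPKM, -1.50, SE 0.30), and Ppp1r15a, which recruits the phosphatase of eIF2alpha (28.4 and 24.6 FPKM to 8.63 and 9.09 FPKM, -1.24, SE 0.19). Without replicate 2 of W1 or of W2, 2 genes of the list were called lower, and 3 without replicate 1 of W1.

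Among the genes that rose were several of glucose storage and release. The list of glucose and glycogen genes had 5 of 24 higher and 1 lower (median 0.37; Control also 5 higher and 1 lower, median 0.18). Ppp1r3b, which brings protein phosphatase 1 to glycogen in liver, went from 4.63 and 6.36 FPKM to 19.7 and 17.1 FPKM (1.82, SE 0.25). Slc37a4, the glucose 6-phosphate transporter, went from 15.5 and 13.8 FPKM to 41.5 and 33.7 FPKM (1.55, SE 0.25). Lpin1, a phosphatidate phosphatase of triglyceride synthesis, rose from 3.21 and 3.93 FPKM to 16.1 and 15.7 FPKM (2.11, SE 0.29), while its Control change was -0.29 (SE 0.29) and the difference missed the threshold (adjusted p = 0.063).

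Enzymes of the urea cycle and amino acid breakdown rose in part. Of 38 genes, 15 were higher and none lower, which is 39.5% of the list against 6.03% of all genes, and the median was 0.70 (Control 10 higher, 3 lower, median 0.26). Tdo2, the liver enzyme that opens the tryptophan ring, was at 10.8 and 10.6 FPKM at W1 and at 73.1 and 42.6 FPKM at W2 (2.52, SE 0.22, adjusted p = 1.5e-05). Control livers lay between 19.8 and 22.9 FPKM, and Tdo2 was one of the genes whose change differed between the genotypes (difference 2.11, adjusted p = 0.025). With totals set equal or with a term for sex, 0 of the 38 genes passed that limma test of the difference. In these 2 fits 9 and 3 of them were at an unadjusted p under 0.05. Oat, ornithine aminotransferase, went from 9.998 and 10.9 FPKM to 36.0 and 40.3 FPKM (2.02, SE 0.27). Sds, serine dehydratase, went from 27.3 and 13.9 FPKM to 71.9 and 117 FPKM (2.43, SE 0.46). The urea cycle enzymes Arg1 (210 and 199 FPKM to 378 and 581 FPKM) and Ass1 (151 and 170 FPKM to 270 and 337 FPKM) changed by 1.45 (SE 0.27) and 1.16 (SE 0.27). Of the 15 calls, 8 held under all 3 scales, and there were 8 without replicate 1 of W1, 9 without replicate 2 of W1 and 3 without replicate 2 of W2. Sds lost its call without replicate 2 of W2 (1.95, adjusted p = 0.0511), and Ass1 without replicate 1 of W1 (adjusted p = 0.102) or replicate 2 of W2 (adjusted p = 0.129).

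Several of these enzymes mark a zone of the liver lobule, and some genes of both zones rose. Of 21 periportal genes 8 were higher (median 0.89; Control 5 higher, 4 lower, median 0.15), and of 23 pericentral genes 8 were higher and 1 lower (median 0.54; Control 8 higher, 2 lower, median 0.38). The periportal sum in cKO livers went from 44212 and 40337 FPKM at W1 to 40091 and 36558 FPKM at W2. The pericentral sum went from 1701 and 1550 FPKM to 3766 and 2040 FPKM. On the pericentral side Glul, glutamine synthetase of the last hepatocytes before the central vein, was at 128 and 121 FPKM at W1 and at 294 and 273 FPKM at W2 (1.43, SE 0.20). Notum, a secreted Wnt inhibitor that is itself a Wnt target, went from 2.103 and 3.03 FPKM to 14.2 and 17.4 FPKM (2.46, SE 0.24). Cyp1a2, a drug-metabolizing P450, went from 17.5 and 23.5 FPKM to 59.2 and 49.997 FPKM (1.63, SE 0.28). At W1 it lay below the Control values of 60.9 and 73.3 FPKM, and at W2 within the Control values of 39.1 and 67.8 FPKM. On the periportal side Hsd17b6, a steroid dehydrogenase, went from 20.2 and 43.9 FPKM to 116 and 116 FPKM (2.18, SE 0.41). Periportal calls numbered 4 without replicate 1 of W1 and 4 without replicate 2 of W2, and pericentral calls 6 or 7 without any of the 4 livers.

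**Figure D4:**
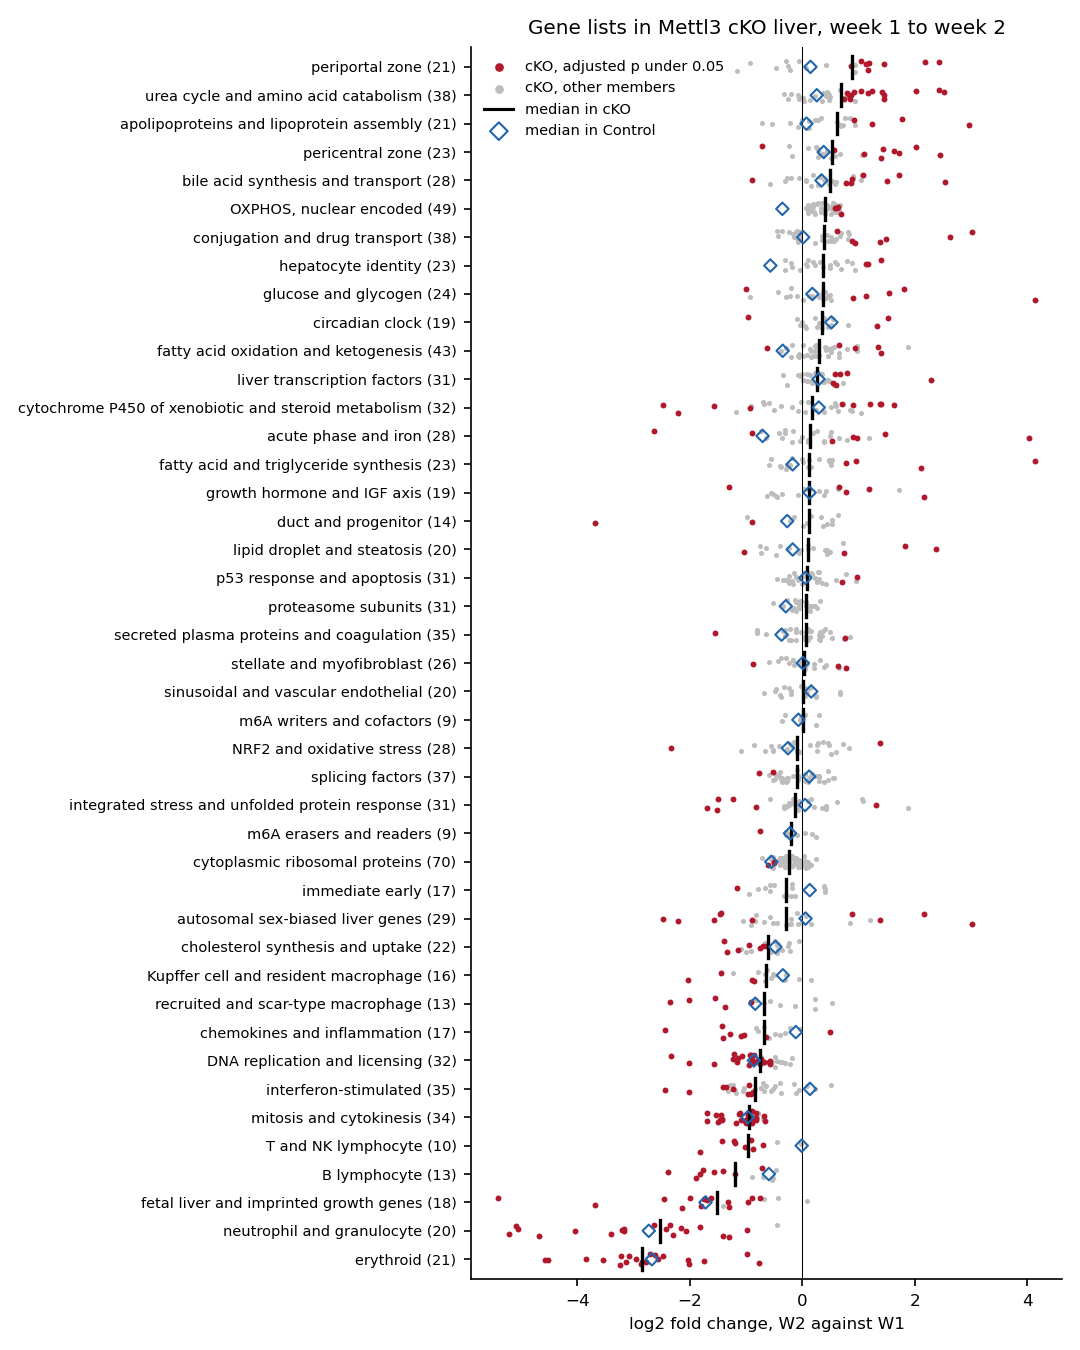
Each row is a gene list with the number of genes tested in brackets; points are the log2 fold changes of its members from W1 to W2 in Mettl3 cKO livers (red where adjusted p is under 0.05), the black bar is their median and the open diamond is the median of the same genes in Control. Medians run from -2.85 for erythroid genes to 0.89 for periportal genes, and the diamond sits apart from the bar for interferon-stimulated, T and NK lymphocyte, OXPHOS and hepatocyte identity genes.

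Of 31 liver transcription factors, 6 were higher and none lower (median 0.26; Control 11 higher). Cebpb, a bZIP factor of the hepatocyte stress and gluconeogenic programmes, was at 40.2 and 44.9 FPKM at W1 and at 175 and 179 FPKM at W2 (2.29, SE 0.21, adjusted p = 3.2e-05), against 41.1 and 52.9 FPKM and then 70.7 and 59.4 FPKM in Control (1.00, SE 0.21). Hnf4a, a nuclear receptor that maintains hepatocyte identity, was at 69.7 and 56.9 FPKM and then at 80.3 and 79.2 FPKM, a change of 0.59 (SE 0.18, adjusted p = 0.048). That call was lost under both other scales and without any of the 4 livers (adjusted p 0.0651 to 0.245). Under each other scale 2 factors were called and without each of the 4 livers in turn 1 or 2, and Cebpb kept its call each time. Atoh8, a bHLH factor outside the list that responds to BMP signalling, went from 1.45 and 4.00 FPKM to 16.5 and 18.4 FPKM (2.61, SE 0.44). Igf1, the growth factor that liver secretes in response to growth hormone, went from 40.6 and 43.7 FPKM to 83.8 and 78.9 FPKM (1.19, SE 0.17).

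In the apolipoprotein list 4 of 21 genes were higher (Control 1 higher, 3 lower), and 2 without replicate 2 of W1, where the median went from 0.62 to 0.27. Apoc3, an inhibitor of triglyceride clearance, was at 209 and 168 FPKM at W1 and at 939 and 1632 FPKM at W2 (2.98, SE 0.35, adjusted p = 0.00018; Control 2.60, SE 0.35). It lies in a run of genes on chromosome 9 (coordinates from GENCODE on GRCm38), of which Apoa5, Zpr1 and Bud13 were also called higher. Apoa1 (chr9:46228580-46230466, plus strand) is followed by Apoc3 (chr9:46232933-46235636, minus strand) and then by Apoa4 (chr9:46240696-46243459), Apoa5 (chr9:46268633-46271919), Zpr1 (chr9:46273064-46282643) and Bud13 (chr9:46283008-46299110), all 4 on the plus strand. Apoa5, an activator of triglyceride clearance, went from 151 and 177 FPKM to 612 and 363 FPKM (1.78, SE 0.33). Zpr1, a zinc finger protein, went from 53.5 and 43.1 FPKM to 187 and 306 FPKM (2.54, SE 0.36), and the spliceosome-associated Bud13 from 5.04 and 5.84 FPKM to 22.6 and 61.9 FPKM (2.82, SE 0.38).

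Bud13 changed by 0.36 (SE 0.38) in Control, where its 4 livers lay between 2.01 and 2.38 FPKM, below every cKO liver, and the difference between the changes was 2.46 (adjusted p = 0.095). Apoa1, the main protein of HDL, was at 23006 and 20392 FPKM and then at 33752 and 25208 FPKM, and did not pass (0.69, SE 0.23, adjusted p = 0.064). Apoa4, named after its values were seen, had overlapping ages with 1076 and 502 FPKM, then 1844 and 755 FPKM (adjusted p = 0.11). Annotated antisense RNAs overlap Apoa4 and Apoa5, and the library kit does not mark strand, so these values can hold reads of either.

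**Figure D5:**
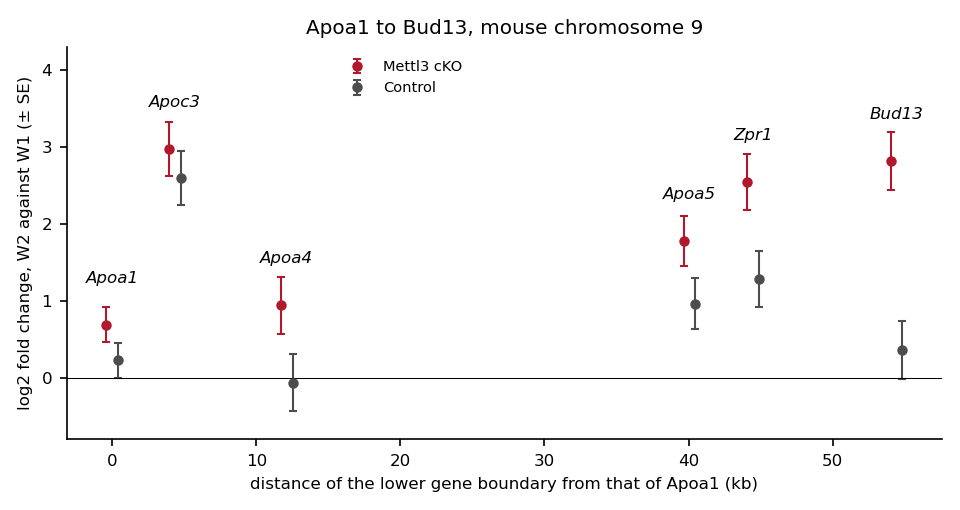
Log2 fold change from W1 to W2 (points, with bars of 1 SE) of the 6 protein-coding genes from Apoa1 to Bud13 on chromosome 9, in Mettl3 cKO (red) and Control (grey), placed by the distance of each gene's lower boundary from that of Apoa1 in kb. Apoc3 rose in both, by 2.98 and 2.60, while Zpr1 and Bud13 stand at 2.54 and 2.82 in cKO and at 1.28 and 0.36 in Control.

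Detoxification genes were mixed. Of 32 cytochrome P450 genes 6 were higher and 4 lower (median 0.17; Control 8 higher, 2 lower), and with FPKM as deposited or totals set equal 3 higher and 5 lower (medians -0.03 and -0.01). Of 38 conjugation and transport genes 7 were higher (median 0.40; Control 4 higher, 4 lower), and of 28 bile acid genes 7 were higher and 1 lower (median 0.50; Control 7 higher, 1 lower). Cyp27a1, the first enzyme of the alternative bile acid pathway, went from 40.2 and 30.9 FPKM to 78.8 and 126 FPKM (1.72, SE 0.30; Control 2.02). The uptake transporter Slco1a4 went from 1.34 and 1.23 FPKM to 10.3 and 10.9 FPKM (2.54, SE 0.37) and the basolateral export pump Abcc3 from 7.99 and 7.62 FPKM to 18.5 and 22.1 FPKM (1.51, SE 0.25). Gstp2, a pi-class glutathione transferase, rose from 2.098 and 1.39 FPKM to 6.74 and 26.4 FPKM (2.63, SE 0.50), with Control at or under 0.541 FPKM. It is a close copy of other pi-class genes, and its value is uncertain for that reason. Bile acid calls numbered 4 without replicate 2 of W2.

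Sex-biased autosomal genes are given because of the change of sex noted above, but they cannot separate it from age. Of 29 such genes 6 were lower and 4 higher in cKO livers (Control 3 lower, 6 higher). Cyp3a16 and Cyp3a44, P450s known to be higher in female than in male liver after puberty, went from 25.2 and 28.3 FPKM to 3.67 and 2.94 FPKM (-2.47, SE 0.19) and from 50.4 and 54.0 FPKM to 10.8 and 7.07 FPKM (-2.21, SE 0.25). In the Control males Cyp3a16 was at 48.7 and 64.1 FPKM at W1 and still at 40.6 and 39.7 FPKM at W2 (0.06, SE 0.19). The male W1 Control livers thus lay above the female W1 cKO livers, and genotype and sex cannot be told apart there. The Cyp3a genes are close copies, and reads may be split between them. With a term for sex, which only the day 1 Control pair of 1 male and 1 female could estimate, 16 genes were called higher and 115 lower, among them 16 of the 21 erythroid, 11 of the 20 neutrophil, 1 of the 38 urea cycle and amino acid, 1 of the 32 replication, 3 of the 18 fetal and imprinted, 2 of the 13 B lymphocyte and 1 of the 23 pericentral genes. The mitosis, interferon-stimulated, T and NK lymphocyte, Kupffer cell, recruited macrophage, cholesterol, stress response, glucose, periportal, apolipoprotein, bile acid and conjugation lists had 0 calls in that fit. At an unadjusted p under 0.05 in that limma fit there were 27 of the mitosis and 2 of the T and NK lymphocyte genes. Of the interferon-stimulated genes 6 were (3 higher, 3 lower), and each of the other lists just named had between 2 and 9. The OXPHOS, fatty acid oxidation, lipid droplet, plasma protein, ribosomal protein, proteasome, endothelial, stellate, p53 and m6A lists also had 0 calls in that fit. These had between 0 and 5 genes each at that p. In the test of the difference from Control, 0 of the T and NK genes were at that p with the sex term.

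Of 20 lipid droplet genes 3 were higher and 1 lower (median 0.10; Control 2 lower), and with FPKM as deposited 2 higher and 4 lower (median -0.14). Ucp3, a mitochondrial carrier best known from muscle, was at 0.739 and 1.25 FPKM at W1 and at 8.83 and 7.63 FPKM at W2 (2.40, SE 0.19, adjusted p = 9.0e-06), while no Control liver of either age was above 0.238 FPKM. Plin4, a lipid droplet coat protein, went from 2.50 and 1.89 FPKM to 9.13 and 8.55 FPKM (1.84, SE 0.31), and Fitm1, an endoplasmic reticulum protein of lipid droplet formation, from 8.12 and 6.03 FPKM to 22.7 and 50.9 FPKM (2.37, SE 0.42). Neither moved past the threshold in Control (0.30 and 0.58). All 49 nuclear-encoded OXPHOS genes, which code for the respiratory chain and ATP synthase, had a log2 change above 0 in cKO, between 0.06 and 0.69, and 4 were called higher. Their median of 0.40 was 0.15 with FPKM as deposited and 0.17 with totals set equal, where 0 were called by limma, with 2 and 5 at an unadjusted p under 0.05. Without either W1 liver or replicate 2 of W2 there were 0 calls, and without replicate 1 of W2 there was 1. In Control their median was -0.35, with 13 lower, beside the higher mitochondrial share of the W2 Control libraries. Of the 49, 0 passed the limma test of the difference between the 2 changes. At an unadjusted p under 0.05 in that test were 30 with the higher change in cKO and 1 with the lower. With FPKM as deposited 2 of the 49 passed that test. With a term for sex 0 OXPHOS genes were called in cKO livers by limma, and 0 were at an unadjusted p under 0.05.

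Other groups had few calls. Of 43 fatty acid oxidation and ketogenesis genes 4 were higher and 1 lower (median 0.29, or 0.04 with FPKM as deposited), while in Control 2 were higher and 7 lower (median -0.35). The count of higher genes was 7 without replicate 1 of W1, 1 without replicate 2 of W1, 3 without replicate 1 of W2 and 2 without replicate 2 of W2. Of 35 plasma protein and coagulation genes 1 was higher and 1 lower (median 0.07; Control 1 higher, 11 lower, median -0.37). Of the 31 proteasome genes 0 were called by limma and 1 was at an unadjusted p under 0.05 (median 0.07), and 3 of 70 ribosomal protein genes were lower (Control 39 lower). That count was 16 with FPKM as deposited and 13 with totals set equal, but 0 with a replicate block, with the 4 cKO libraries alone, and without either W1 liver or replicate 2 of W2. With FPKM as deposited the medians of the plasma protein and proteasome lists were -0.17 and -0.18. Of the 9 m6A writer genes 0 were called by limma and 1 was at an unadjusted p under 0.05 (Control 3 higher, Mettl3 among them), and of 9 eraser and reader genes 1 was called: Igf2bp3, an oncofetal RNA-binding protein that reads m6A, went from 6.88 and 5.59 FPKM to 3.87 and 1.87 FPKM (-0.75, SE 0.18, adjusted p = 0.016; Control -0.79). The Igf2bp3 call was lost without replicate 1 of W1 (adjusted p = 0.109) or replicate 2 of W2 (adjusted p = 0.144). Of 31 p53 response genes 2 were higher (median 0.08; Control 2 higher, 2 lower). With FPKM as deposited it was 1 higher and 1 lower (median -0.16), and without replicate 2 of either age 0. Hamp2, a hepcidin paralog, rose by 4.03 (SE 0.92), on values of 0.296 and 3.43 FPKM and then 21.1 and 52.9 FPKM. Its call was lost without replicate 1 of W1 (adjusted p = 0.111) or replicate 2 of W2 (adjusted p = 0.108). The clock gene Per1 went from 7.72 and 9.23 FPKM to 20.9 and 23.4 FPKM (1.53, SE 0.20), and the sources used here do not state the hour of collection.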

How the data were processed

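Poly(A) RNA of whole liver was sequenced with a kit that does not mark strand. The authors aligned reads with HISAT2 to mm10 and deposited FPKM per gene. How FPKM were counted, and on which annotation, is not stated in the sources used here. A DESeq2 step named in the submitters' notes was not used. Values of low genes did not resolve into whole reads, so no count test was run and depth is an estimate.

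Here FPKM were rescaled by the median of ratios over 11747 genes, transformed as log2(FPKM + 1) and fitted in limma 3.58.1 (R 4.3.3, trended variance) over 16 libraries in 8 groups of 2, after testing on simulated data. P-values were Benjamini-Hochberg adjusted over 12262 genes. SE is that of the limma coefficient. Labels name the 2 livers of a group as separate samples. The p-values rest on the spread between replicate livers pooled over all 8 groups and drawn toward a trend across genes. They do not rest on the spread of the compared livers alone. A permutation of 2 against 2 livers cannot give a two-sided p below 0.333. Replicate numbers do not pair livers.

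Names came from a rule: the first 2 and up to 6 most changed called members of each of 43 lists, the 15 highest and lowest changes, the 8 highest and lowest differences from Control and genes in the study's text. A few of these genes are not reported here. The gene set and lists were chosen with earlier results of these data known. Coordinates are GENCODE M21 and promoters RefSeq. The scale, filter, pseudocount, libraries fitted, replicate block, sex term, threshold and single livers were varied.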

Additional observations from a re-analysis of the deposited data

Results flagged for a closer look

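For 11 genes the change from W1 to W2 differed between Mettl3 cKO and Control livers by the limma test of that difference. W1 cKO livers were female and the other 6 livers male by their transcripts, and mitochondrial genes took 58.1% and 59.0% of the W2 Control libraries. Their part in these differences was not tested.

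In 3 genes the cKO livers rose while Control livers did not pass the test. Ucp3, a mitochondrial carrier, differed by 2.15, and the tryptophan enzyme Tdo2 by 2.11. The Tdo2 difference did not pass with totals set equal or with the sex term. Tmem184a, a transmembrane protein, went from 2.85 and 2.61 FPKM to 7.09 and 6.51 FPKM in cKO, and its changes differed by 1.41. In 2 genes the cKO livers fell alone or against Control. Cyp3a16, a P450, differed by -2.53, and the non-coding Gm36445 by -1.95, going from 3.52 and 3.44 FPKM to 1.01 and 0.487 FPKM in cKO.

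For the other genes the larger movement was in Control. Prok1, a secreted ligand of endocrine and endothelial cells, went from 22.9 and 21.97 FPKM to 1.01 and 1.39 FPKM in Control, and from 11.8 and 10.3 FPKM to 4.44 and 3.21 FPKM in cKO, a difference of 2.00. Slc22a29, an organic anion transporter family member, went from 1.20 and 1.62 FPKM to 11.97 and 17.2 FPKM in Control, while the cKO livers had 5.605 and 9.05 FPKM and then 9.49 and 12.1 FPKM, a difference of -2.44. Rec114 differed by 1.74, Sap18b by 1.22, 2610528J11Rik by 1.504 and the processed pseudogene Gm3375 by 2.05. In each of these 4 the W2 Control livers were the lowest of the 8 livers. A processed pseudogene such as Gm3375 can share reads with its parent gene.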

How the results depend on the processing

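The 740 higher and 990 lower calls in cKO livers are set here against the counts of each other fit. These were 338 and 1718 with FPKM as deposited, 319 higher with equal totals, 334 and 606 with the 4 cKO libraries alone, 16 and 115 with a term for sex, 273 and 509 at an unadjusted p under 0.05 with a log2 change past 1, and 236 and 471 with that change and the adjusted p. Leaving out 1 cKO liver gave 250 to 533 higher and 518 to 697 lower calls: 318 and 518 without replicate 1 of W1, 344 and 576 without replicate 2 of W1, 250 and 527 without replicate 2 of W2. Differences from Control, 8 higher and 3 lower, numbered 39 higher with FPKM as deposited, 1 higher with equal totals, 14 and 26 with no filter, 1 lower with a pseudocount of 0.1, 2 higher with the W1 and W2 libraries alone, 1 and 0 with the sex term, and 374 and 231 at the unadjusted threshold. Leaving out 1 of the 8 livers gave 0 to 23 higher and 0 to 18 lower, with 0 and 0 without Control replicate 1 of W1, 17 and 18 without Control replicate 1 of W2, and 23 and 6 without cKO replicate 2 of W2.

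The replicate numbers share only a number (correlation of deviations between W1 and W2 cKO -0.0131). With the replicate block 710 genes were higher, 975 lower, and 5 and 2 differed from Control.

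Uncalled changes that turned sign were Mettl3 (-0.18 as deposited, -0.16 with equal totals, -0.043 to 0.139 without 1 liver), Alb (-0.19 as deposited, -0.16 with equal totals, -0.017 to 0.151 without 1 liver), Clec4f (0.33 with the sex term, -0.664 to 0.069 without 1 liver) and Isg15 (0.17 with the sex term). Of 91 called named genes, 89 kept their call with FPKM as deposited, 90 with equal totals, 85 with no filter, 89 with the smaller pseudocount, 84 with the cKO libraries alone, 90 with the block, 28 with the sex term and 78 to 83 without 1 liver; none turned sign. The cause of these movements was not tested. The naming rule favoured called genes with the largest changes, so the shares kept by named genes do not carry over to all called genes. Of all 740 higher calls, 291 held under the 3 scales. With 2 livers a group and estimated depth, changes of genes near 1 FPKM are the least precise.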
